A study of Mus musculus with 12 samples.

Results

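The lipid mediator genes described here are 10 genes of eicosanoid synthesis: the secreted phospholipase gene Pla2g2d, the cytosolic phospholipase A2 gene Pla2g4a, the lipoxygenase genes Alox5 and Alox15, the 5-lipoxygenase activating protein gene Alox5ap, the cyclooxygenase genes Ptgs1 and Ptgs2, and the terminal enzyme genes Lta4h, Ltc4s and Hpgds. All 10 were found by symbol among 56953 genes measured by RNA-seq in myeloid cells sorted from the bone marrow of female C57BL/6J mice aged 8 weeks. The 12 libraries form 4 groups of 3: eYFP+ macrophages, eYFP- macrophages, Ly6Chi monocytes and Ly6Clo monocytes. The eYFP+ macrophages stem from embryonic progenitors and are marked through Rank-driven recombination. The study calls the eYFP- macrophages adult-derived. Pla2g2d was chosen because it was high in eYFP+ macrophages in these same libraries, so its values in macrophages are described without a test. The other 9 genes were picked by pathway.

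In the study, macrophages came from Rank cre/+;R26.eYFP fl/+ mice and were sorted as F4/80hi cells. Its gating of marrow myeloid cells started from Gr1-low cells, which leaves out most neutrophils, took CD206 and VCAM1 double-positive F4/80+ cells as macrophages, and told monocytes from eosinophils among CD11b+ cells by light scatter. Recombination through Rank-cre marks a cell lineage permanently and need not mark all its cells, so the eYFP- gate can hold cells that escaped recombination. The labels name strain, sex and tissue for each library. The genotype of the monocyte donors, and whether libraries of one number came from the same mouse, are not given in the labels, so p-values measure the spread between these libraries.

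Eicosanoids are oxygenated derivatives of arachidonic acid, a fatty acid that phospholipases A2 release from membrane lipids. Cyclooxygenases convert it to prostaglandin H2, from which terminal synthases make prostaglandin D2, thromboxane and other prostanoids. The 5-lipoxygenase pathway instead makes leukotriene A4, which is hydrolysed to leukotriene B4, a leukocyte attractant, or joined to glutathione to give the cysteinyl leukotrienes. Myeloid cells are a main source of both kinds of mediator, and different myeloid cells carry different sets of these enzymes.

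Promoter sequence was at hand for 8 of the 10 genes (RefSeq, GRCm38.p6, 250 bases before to 50 bases after the annotated start); Alox5ap and Alox15 are not among them. The core letters bound by PU.1, a transcription factor that macrophages and monocytes require, were searched as GAGGAAG on either strand. They occur in 4 of the 8 promoters, those of Pla2g2d, Hpgds, Ptgs1 and Ltc4s, and in 13.6% of all 32851 promoters of this length in the table. The letters TGCTGAC, a core of the sites of Maf factors, occur in 0 of the 8 and in 4.67% of all promoters. The 3 sequences below are shown because these genes had their highest levels in macrophage libraries and carry the PU.1 letters before or across the annotated start; they run 5′ to 3′ on the gene's strand, end 10 bases into the transcript, and have the PU.1 letters in capitals.
Pla2g2d (chr4:138775485-138775744, plus strand): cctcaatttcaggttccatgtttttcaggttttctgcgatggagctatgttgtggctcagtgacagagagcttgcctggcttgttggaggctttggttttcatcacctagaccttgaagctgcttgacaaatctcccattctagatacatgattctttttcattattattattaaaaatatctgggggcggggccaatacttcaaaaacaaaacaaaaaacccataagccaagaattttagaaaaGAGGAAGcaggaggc
Hpgds (chr6:65144721-65144830, minus strand): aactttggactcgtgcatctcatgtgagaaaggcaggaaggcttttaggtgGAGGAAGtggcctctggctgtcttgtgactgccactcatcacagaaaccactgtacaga
Ptgs1 (chr2:36230326-36230435, plus strand): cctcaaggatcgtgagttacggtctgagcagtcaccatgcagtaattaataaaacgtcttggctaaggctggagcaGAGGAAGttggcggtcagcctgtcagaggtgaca
The first capital lies at position -5 in Pla2g2d, -49 in Hpgds and -24 in Ptgs1, counted from the annotated start. A match is a description of letters and not evidence of binding.

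Libraries held 26390927 to 48618187 counts. The 8 bone marrow macrophage markers, among them Vcam1, summed to 21460 to 29990 TPM, the length-scaled transcript share used here for levels, in the 6 macrophage libraries and to 282 to 1361 TPM in the 6 monocyte libraries, and the 4 Ly6Chi monocyte markers summed to at least 6947 TPM in Ly6Chi against at most 337 TPM in every other library. Ly6Clo replicate 2 and eYFP+ replicate 1 stood apart from their groups by base composition. In Ly6Clo replicate 2, genes in the third of lowest GC content exceeded those in the third of highest GC content by 1.25 on the log2 scale, relative to the other libraries of its group, and in eYFP+ replicate 1 by 0.69; in the other 10 libraries this difference lay between -0.64 and 0.09. Values without these 2 libraries are given where the call of a named gene turns on them, and for some differences whose size does.

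Pla2g2d, the secreted phospholipase A2 of group IID known from lymphoid tissue dendritic cells and macrophages, stood at 12.7, 13.4 and 4.87 TPM in the 3 eYFP+ macrophage libraries. In eYFP- macrophages it was at 0.50, 0.69 and 1.05 TPM. Every eYFP+ library was above every eYFP- library, as the choice of the gene would give. In Ly6Clo monocytes the values were 0.89, 0 and 0.36 TPM, and in the 3 Ly6Chi libraries not a single count was found. The counts behind these levels were 578, 577 and 259 in eYFP+, 25, 35 and 52 in eYFP-, and 44, 0 and 16 in Ly6Clo libraries, so all groups but the first rest on few reads. As a description, the fitted log2 difference between eYFP+ and eYFP- macrophages was 3.86 ± 0.88 (SE, n = 3 per group), or 14.5-fold; on the log2(TPM + 1) scale, which understates differences of low genes, Pla2g2d differed by 2.60. In bulk libraries, fewer cells of a type and less RNA per cell cannot be told apart. Against the floor of 3 counts per library in Ly6Chi monocytes, the mean level was at least 127.7-fold higher in eYFP+ and at least 8.82-fold higher in eYFP- macrophages. These bounds cover counting error only.

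Pla2g2d overlapped between eYFP- macrophages and Ly6Clo monocytes. Between the monocyte groups, DESeq2 called Pla2g2d lower in Ly6Chi in the fit of all 12 libraries (adjusted p = 0.000512), which includes the eYFP+ libraries it was chosen on. The call was not made by DESeq2 on the 6 monocyte libraries alone (adjusted p = 0.0563), by edgeR (adjusted p = 0.0646) or by limma (adjusted p = 0.192 to 0.606), and Ly6Clo replicate 2 was at 0 as the Ly6Chi libraries were. Its mean level in eYFP+ macrophages was 10.3 ± 4.72 TPM (SD, n = 3), below 7 of the other 9 genes there.

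**Figure D1:**
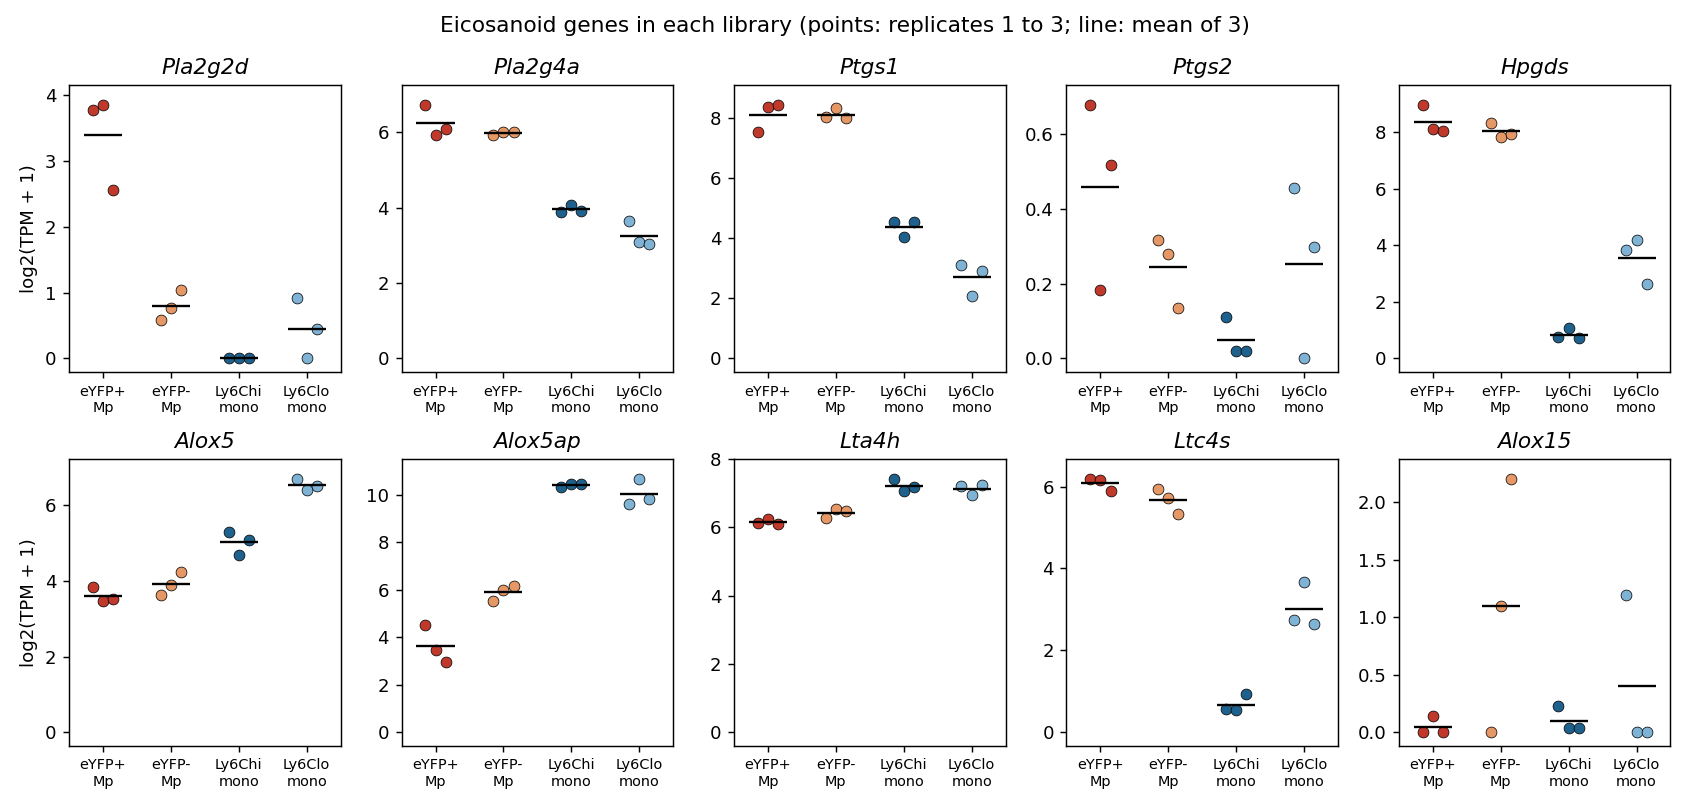
Level of each of the 10 genes as log2(TPM + 1) on the vertical axis, with the scale set per gene, in the 4 groups (Mp, macrophages; mono, monocytes); points are the 3 libraries of a group in replicate order and lines are their means. Pla2g2d is highest in the 3 eYFP+ libraries, Ptgs1, Hpgds, Ltc4s and Pla2g4a are high in all 6 macrophage libraries, and Alox5, Alox5ap and Lta4h are higher in all 6 monocyte libraries.

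The comparison of macrophages with monocytes asks which branch of the pathway each cell type carries. Ptgs1 and Hpgds, which act in prostaglandin synthesis, and Ltc4s, which makes cysteinyl leukotrienes, were higher in macrophages, and the genes that make leukotriene A4 and leukotriene B4 were higher in monocytes. Of the 9 genes other than Pla2g2d, 4 rose in macrophages (Pla2g4a, Ptgs1, Hpgds and Ltc4s), against a background of 20.7% of all tested genes, and 3 fell (Alox5, Alox5ap and Lta4h), against a background of 15.3%. Alox15 and Ptgs2 did not pass the test. All 7 calls were also made by edgeR, and in each of the 7 the 6 macrophage libraries did not overlap the 6 monocyte libraries. The share of all genes without such overlap is not given, here or in the comparisons below.

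Hpgds, the hematopoietic synthase of prostaglandin D2, showed the largest difference of the 9 genes. It was at 494, 277 and 261 TPM in eYFP+ and 318, 226 and 245 TPM in eYFP- macrophages. In Ly6Clo monocytes it was at 13.4, 17.2 and 5.18 TPM, and in Ly6Chi monocytes at 0.68, 1.10 and 0.64 TPM. The lowest macrophage library held 226 TPM and the highest monocyte library 17.2 TPM, and the difference was 92.2-fold (log2 6.53 ± 0.36, DESeq2 adjusted p = 9.42e-73).

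Ptgs1, the constitutive cyclooxygenase, was at 184, 332 and 345 TPM in eYFP+ and 260.0, 320.5 and 255.5 TPM in eYFP- macrophages. In Ly6Chi monocytes it was at 22.3, 15.5 and 22.4 TPM and in Ly6Clo monocytes at 7.59, 3.19 and 6.55 TPM. All macrophage libraries lay far above all monocyte libraries, by 24.4-fold on average (log2 4.61 ± 0.25, DESeq2 adjusted p = 2.81e-75). Markers of several other cells were also higher in macrophages. Megakaryocyte and platelet markers summed to 122 to 202 TPM against 2.14 to 77.4 TPM in monocytes, with 5 of 9 called higher by DESeq2. Erythroid markers summed to 8987 to 35360 TPM against 357 to 1410 TPM, with 9 of 9 called. B cell markers, mostly Cd79b, summed to 455.9 to 701.5 TPM against 28.3 to 139.7 TPM, with 1 of 6 called. T and NK cell sums overlapped (3.60 to 49.3 and 0.83 to 17.7 TPM), with 4 of 7 called higher. Dendritic cell sums (3.77 to 40.3 against 109.8 to 2843 TPM) and the neutrophil sums given below were lower in macrophages. Their part in the macrophage differences of Ptgs1 and the other genes was not tested. Ptgs2, the inducible cyclooxygenase, did not exceed 0.60 TPM in any of the 12 libraries. Its values were 0.60, 0.14 and 0.43 TPM in eYFP+, 0.24, 0.21 and 0.10 TPM in eYFP-, 0.08, 0.01 and 0.01 TPM in Ly6Chi and 0.37, 0 and 0.23 TPM in Ly6Clo libraries. The macrophage and monocyte ranges overlapped (log2 1.59 ± 0.81, DESeq2 adjusted p = 0.116; without the 2 libraries that stood apart, log2 0.97 ± 0.70, adjusted p = 0.282). When replicates were blocked by number, DESeq2 called it (adjusted p = 0.0421) and edgeR did not (adjusted p = 0.115), and without Ly6Chi replicate 1 DESeq2 called it too (adjusted p = 0.0468). Ptgs1 made up at least 95.3% of the summed TPM of both cyclooxygenase genes in every library.

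Pla2g4a, the cytosolic phospholipase that frees arachidonic acid, was at 103.9, 59.2 and 66.1 TPM in eYFP+ and 60.0, 63.2 and 63.4 TPM in eYFP- macrophages. In Ly6Chi monocytes it was at 13.7, 15.9 and 14.1 TPM and in Ly6Clo monocytes at 11.5, 7.54 and 7.12 TPM. It was 5.79-fold higher in macrophages (log2 2.53 ± 0.23, DESeq2 adjusted p = 6.37e-26).

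Ltc4s, the leukotriene C4 synthase, was at 71.8, 70.4 and 58.6 TPM in eYFP+ and 60.3, 51.8 and 39.4 TPM in eYFP- macrophages. Ly6Clo monocytes held 5.64, 11.7 and 5.26 TPM and Ly6Chi monocytes 0.47, 0.45 and 0.90 TPM. The gene was 25.4-fold higher in macrophages (log2 4.67 ± 0.34, DESeq2 adjusted p = 1.02e-40).

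Alox5ap, whose product presents arachidonic acid to 5-lipoxygenase, had the reverse pattern. It reached 1278, 1384 and 1380 TPM in Ly6Chi and 775, 1620 and 912 TPM in Ly6Clo monocytes. In macrophages it stood at 21.7, 9.91 and 6.68 TPM (eYFP+) and at 44.9, 63.1 and 70.8 TPM (eYFP-). The lowest monocyte library held 775 TPM and the highest macrophage library 70.8 TPM, and the difference was 47.0-fold in favour of monocytes (log2 -5.55 ± 0.35, DESeq2 adjusted p = 3.05e-55). Neutrophil and precursor markers summed to 3046 to 8522 TPM in monocyte and 29.4 to 1330 TPM in macrophage libraries, although the Gr1-low gate would remove most neutrophils, and 6 of 10 were called lower in macrophages by DESeq2 and by edgeR. Their part in the difference was not tested.

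Alox5, the 5-lipoxygenase gene itself, differed less. Ly6Clo monocytes held 103.0, 83.9 and 89.6 TPM and Ly6Chi monocytes 38.4, 24.97 and 32.6 TPM, against 13.4, 10.1 and 10.4 TPM in eYFP+ and 11.3, 13.9 and 17.9 TPM in eYFP- macrophages. It was 4.54-fold lower in macrophages (log2 -2.18 ± 0.21, DESeq2 adjusted p = 1.92e-23). Lta4h, the hydrolase that yields leukotriene B4, was the most even of the called genes: 68.3, 74.3 and 67.8 TPM in eYFP+ and 76.7, 92.0 and 88.6 TPM in eYFP- macrophages, 170.3, 132.1 and 143.0 TPM in Ly6Chi and 146.6, 121.4 and 149.6 TPM in Ly6Clo monocytes. It was 1.99-fold lower in macrophages (log2 -0.99 ± 0.14, DESeq2 adjusted p = 4.32e-11).

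Alox15, the 12/15-lipoxygenase of eosinophils and some tissue macrophages, was uneven within groups. It was at 0, 0.10 and 0 TPM in eYFP+, 0, 1.14 and 3.60 TPM in eYFP-, 0.17, 0.02 and 0.02 TPM in Ly6Chi and 1.28, 0 and 0 TPM in Ly6Clo libraries. Only 3 libraries passed 1 TPM, and no comparison called the gene. The 9 eosinophil markers summed to 1522 to 1773 TPM in eYFP+ and 1178 to 2254 TPM in eYFP- macrophages, mostly from Ccr3 and Ear2, which averaged 916 and 685 TPM in eYFP+ and 618.4 and 550.0 TPM in eYFP- libraries. The granule genes, named after their values were seen, were lower in all eYFP+ than in all eYFP- libraries: Prg2 at 2.28 to 5.96 against 68.4 to 917 TPM, Epx at 0.15 to 0.43 against 0.58 to 54.3 TPM and Prg3 at 0.16 to 1.05 against 2.48 to 36.7 TPM. Of the list, 0 of 8 tested were called between these groups by DESeq2 or edgeR (3 were lower in eYFP+ at an unadjusted p under 0.05 by each). The part of eosinophils in the Alox15 values was not tested.

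**Figure D2:**
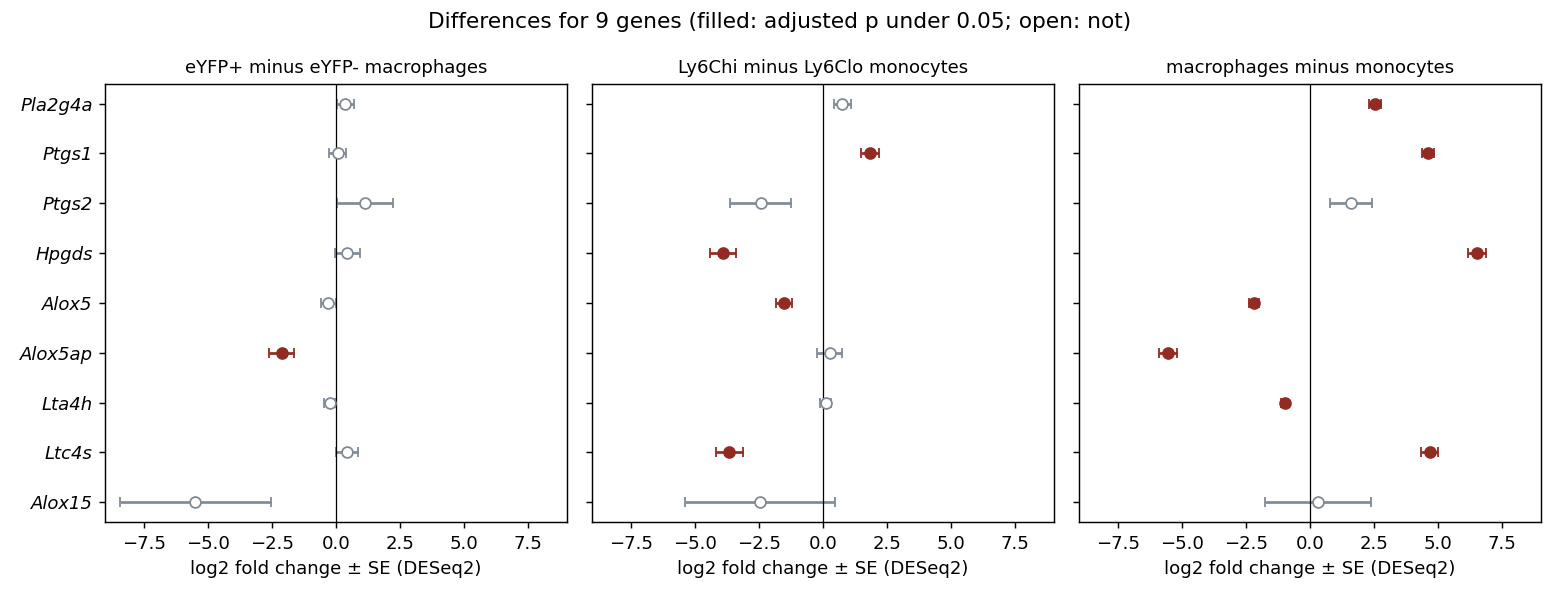
Log2 fold changes with standard errors (DESeq2) for the 9 genes other than Pla2g2d in the comparisons of eYFP+ with eYFP- macrophages, Ly6Chi with Ly6Clo monocytes and macrophages with monocytes; filled points have an adjusted p under 0.05 and points right of 0 are higher in the group named first. Between the macrophage groups Alox5ap alone is filled, between the monocyte groups 4 genes, and between macrophages and monocytes 7 genes.

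The balance of prostanoid and leukotriene genes can be read inside each library as a ratio of TPM values. Ptgs1 exceeded Alox5 by 13.8 to 33.1 in eYFP+ and 14.3 to 23.1 in eYFP- macrophages. The same ratio was 0.581 to 0.687 in Ly6Chi and 0.038 to 0.0737 in Ly6Clo monocytes, so that no library of one cell type reached the range of the other. Lta4h and Ltc4s, which compete for leukotriene A4, stood near each other in macrophages, with a ratio of 0.951 to 1.16 in eYFP+ and 1.27 to 2.25 in eYFP- libraries. In monocytes Lta4h exceeded Ltc4s by 10.4 to 28.4 (Ly6Clo) and 159 to 360 (Ly6Chi). Alox5ap made up 86.2% of the summed mean TPM of the 10 genes in Ly6Chi and 80.5% in Ly6Clo monocytes. In macrophages Hpgds and Ptgs1 led, with 39.1% and 32.7% in eYFP+ and 32.2% and 34.1% in eYFP- cells.

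**Figure D3:**
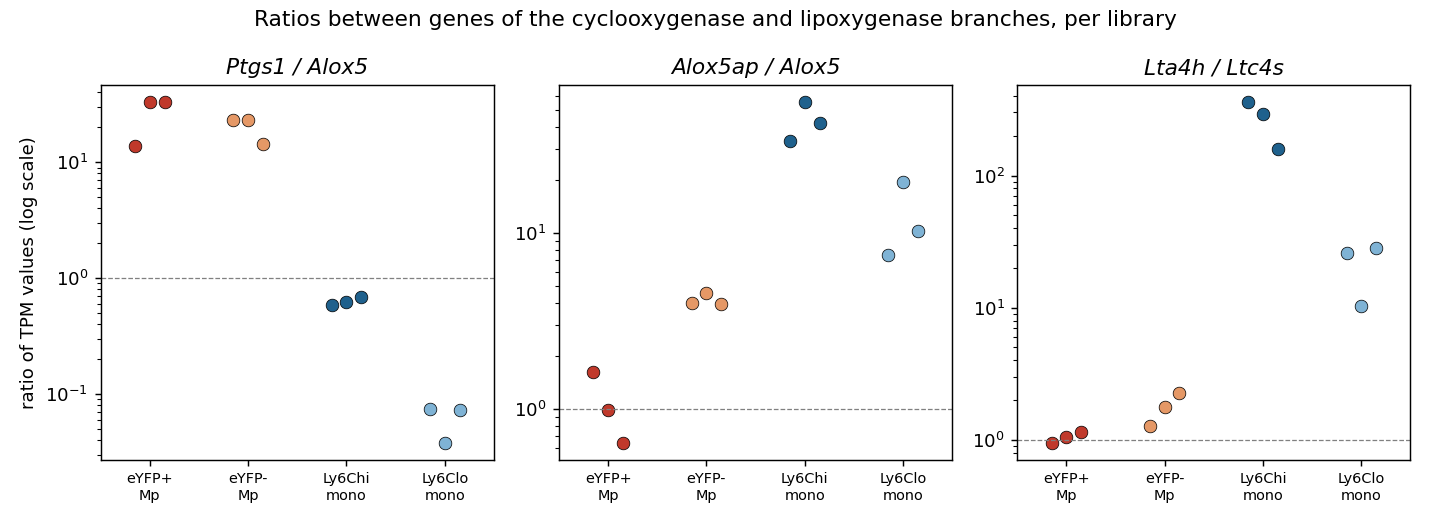
Ratio of TPM values in each library, on a log scale, for Ptgs1 to Alox5, Alox5ap to Alox5 and Lta4h to Ltc4s; points are the 3 libraries of each group and the dashed line marks equal levels. Ptgs1 to Alox5 is at least 13.8 in the macrophage and at most 0.687 in the monocyte libraries, and Alox5ap to Alox5 is 0.640 to 1.62 in eYFP+ and 3.95 to 4.54 in eYFP- macrophages.

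The monocyte comparison asks how the pathway differs between the Ly6Chi and Ly6Clo states. Ly6Clo monocytes held more of the 5-lipoxygenase gene and of 2 terminal synthase genes, and Ly6Chi monocytes more Ptgs1. Of the 9 genes, 1 rose in Ly6Chi against a background of 3.74% of tested genes, and 3 were lower against a background of 5.08%. Hpgds was 14.9-fold (log2 -3.89 ± 0.51, DESeq2 adjusted p = 4.45e-12), Ltc4s 12.5-fold (log2 -3.65 ± 0.53, DESeq2 adjusted p = 1.26e-09) and Alox5 2.87-fold lower in Ly6Chi (log2 -1.52 ± 0.30, DESeq2 adjusted p = 2.04e-05). Ptgs1 was 3.52-fold higher in Ly6Chi (log2 1.82 ± 0.35, DESeq2 adjusted p = 1.40e-05). For these 4 genes all Ly6Chi libraries lay to one side of all Ly6Clo libraries, and edgeR made the same calls.

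Alox5ap (log2 0.27 ± 0.49, DESeq2 adjusted p = 0.818) and Lta4h (log2 0.10 ± 0.20, adjusted p = 0.841) overlapped between the monocyte groups. Pla2g4a was higher in all Ly6Chi than in all Ly6Clo libraries without passing the test (log2 0.75 ± 0.33, adjusted p = 0.149). Without Ly6Clo replicate 2 and eYFP+ replicate 1, DESeq2 called 7 of the 9 genes, adding Pla2g4a (log2 0.69 ± 0.22, adjusted p = 0.0196), Alox5ap (log2 0.71 ± 0.25, adjusted p = 0.0320) and Ptgs2 (log2 -3.001 ± 1.04, adjusted p = 0.0341). The background shares above belong to the fit of all 12 libraries, and the share in this smaller fit is not given. Markers of several other cell types also differed. Macrophage markers summed to 282 to 333 TPM in Ly6Chi and 655 to 1361 TPM in Ly6Clo monocytes (7 of 8 called lower by DESeq2, 5 by edgeR), dendritic cell markers to 109.8 to 123.0 TPM and 613.3 to 2843 TPM (5 of 7 and 2), and eosinophil markers, mostly Ear2, to 120 to 145 TPM and 905 to 2491 TPM (5 of 8 and 3). Sums were lower in Ly6Chi, without overlap, also for megakaryocyte and platelet (2.14 to 4.29 against 60.3 to 77.4 TPM), T and NK cell (0.83 to 3.05 against 11.7 to 17.7 TPM) and B cell markers (28.3 to 34.8 against 54.0 to 139.7 TPM). Neutrophil and precursor marker sums overlapped (5630 to 8522 TPM in Ly6Chi and 3046 to 5690 TPM in Ly6Clo monocytes) and the members were mixed: edgeR called 3 of 10 higher in Ly6Chi, and, named after their values were seen, Elane averaged 600.1 TPM in Ly6Chi and 1.44 TPM in Ly6Clo monocytes and Retnlg 9.99 and 54.4 TPM. The part of these cells in the Hpgds, Ltc4s, Alox5 and Ptgs1 differences was not tested.

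The comparison of eYFP+ with eYFP- macrophages asks how the pathway differs between macrophages with and without the lineage mark. Pla2g2d, chosen for this difference, is left out of the counts here. Of the other 9 genes, 0 were higher in eYFP+, where 0.156% of tested genes were (DESeq2; at an unadjusted p under 0.05 the count was also 0, with edgeR as with DESeq2). 1 gene, Alox5ap, was lower, where 1.92% of tested genes were. Its level was 4.36-fold lower in eYFP+ macrophages (log2 -2.13 ± 0.49, DESeq2 adjusted p = 0.00205), with no overlap between the 3 eYFP+ libraries and the 3 eYFP- libraries.

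The call for Alox5ap depended on the test. It was kept by DESeq2 with replicates blocked by number (adjusted p = 0.00375), whereas edgeR did not make it without the block (adjusted p = 0.0866) or with it (adjusted p = 0.195), and without eYFP- replicate 3 it was lost (DESeq2 adjusted p = 0.0517). Without Ly6Clo replicate 2 and eYFP+ replicate 1 the difference was larger (log2 -2.88 ± 0.26, adjusted p = 7.97e-26). Markers of other cells moved with it. The 10 basophil and mast cell markers summed to 361, 548 and 860 TPM in eYFP- libraries and to at most 13.7 TPM in eYFP+ libraries, and the 10 neutrophil and precursor markers to 195, 1330 and 733 TPM and at most 65.4 TPM. Ly6Chi monocyte markers summed to 8.79, 44.3 and 20.4 TPM in eYFP- and 4.73 to 6.75 TPM in eYFP+ libraries. DESeq2 called 3 of 8 tested basophil markers and 5 of 10 neutrophil markers lower in eYFP+; the basophil protease genes Prss34 and Mcpt8 were at 188 to 456 and 87.4 to 203 TPM in eYFP- and at most 2.55 and 0.18 TPM in eYFP+ libraries. Of the other lists, 3 of 7 tested dendritic cell, 2 of 9 erythroid, 1 of 7 megakaryocyte and 2 of 2 Ly6Chi monocyte markers were called lower by DESeq2. The edgeR test called 1 neutrophil and 1 Ly6Chi monocyte marker lower, and 0 basophil markers, of which 7 of 9 were lower at an unadjusted p under 0.05 by edgeR and 6 of 8 by DESeq2. In the 11 marker lists, 0 genes were called higher by either test, and 0 were higher at an unadjusted p under 0.05. Their part in the Alox5ap difference was not tested.

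**Figure D4:**
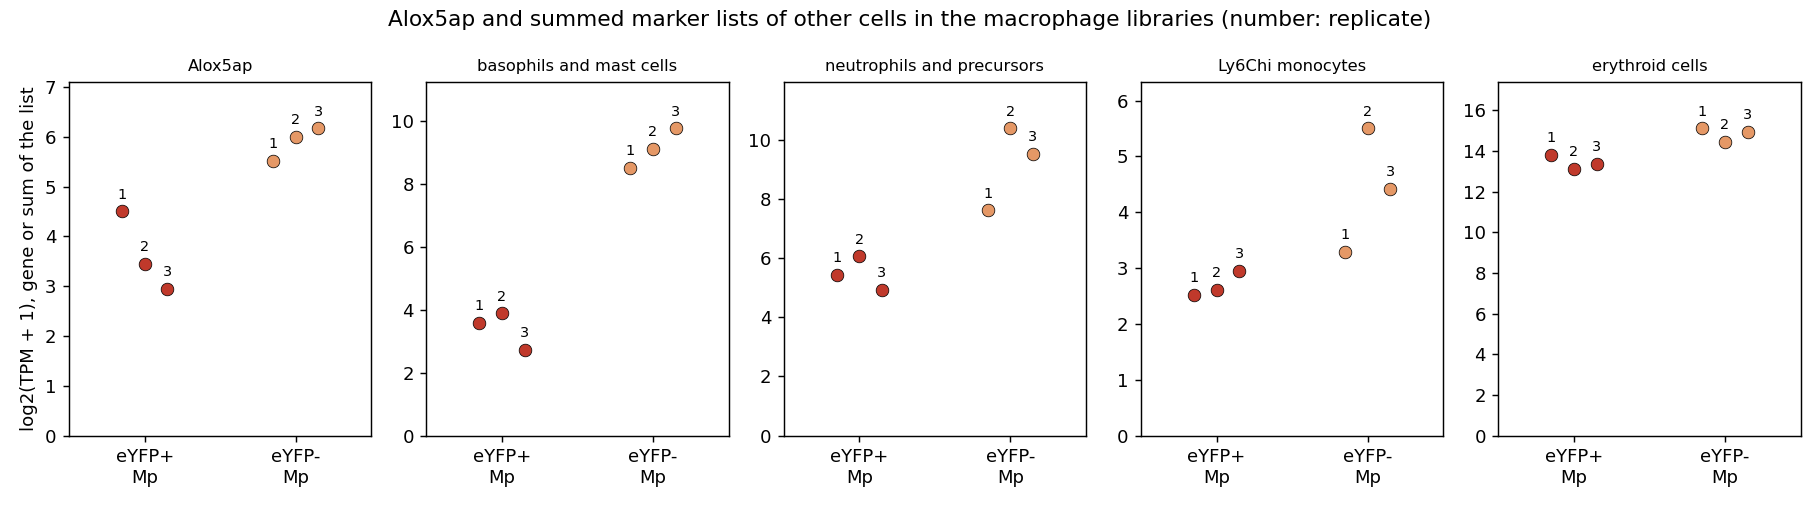
Alox5ap and the summed TPM of 4 marker lists as log2(TPM + 1) in the 3 eYFP+ and 3 eYFP- macrophage libraries, numbered by replicate. Alox5ap and all 4 sums are higher in every eYFP- than in every eYFP+ library, with basophil and mast cell markers at 361 to 860 TPM against 5.61 to 13.7 TPM.

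The other macrophage differences did not pass the test. Lta4h was lower in all eYFP+ than in all eYFP- libraries (log2 -0.25 ± 0.20, DESeq2 adjusted p = 0.927). Ltc4s (log2 0.44 ± 0.43, adjusted p = 0.997), Ptgs2 (log2 1.13 ± 1.10, adjusted p = 0.997) and Alox5 (log2 -0.29 ± 0.30, adjusted p = 1) overlapped. Without the 2 libraries that stood apart, Ptgs2 differed by 0.54 ± 0.94 and Alox5 by -0.53 ± 0.26 (DESeq2 adjusted p = 0.873 and 0.302). Alox15, at or near 0 in eYFP+ and above 1 TPM in 2 of the 3 eYFP- libraries, had the widest difference and error (log2 -5.50 ± 2.95, DESeq2 adjusted p = 0.629, edgeR adjusted p = 0.643). The highest Hpgds and Pla2g4a values of the group were both in eYFP+ replicate 1, one of the libraries that stood apart: the difference was 0.44 ± 0.50 for Hpgds and 0.36 ± 0.33 for Pla2g4a with it (DESeq2 adjusted p = 1 and 0.976), and -0.02 and -0.03 without it. Ptgs1, lowest in the same library, differed by 0.06 ± 0.35 (adjusted p = 1).

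Pair by pair, each macrophage group differed from each monocyte group. Of the 9 genes, DESeq2 called 8 between eYFP+ macrophages and Ly6Chi monocytes (background 28.7%), and 7 each between eYFP+ macrophages and Ly6Clo monocytes (26.1%), eYFP- macrophages and Ly6Chi monocytes (25.5%) and eYFP- macrophages and Ly6Clo monocytes (26.8%). The 7 were the same genes in each pair: Pla2g4a, Ptgs1, Hpgds and Ltc4s higher and Alox5, Alox5ap and Lta4h lower in macrophages. These comparisons share libraries, and the number of all genes called moved with the fit. Between eYFP- macrophages and Ly6Chi monocytes, 5621 became 8622 without the 2 libraries that stood apart. The edgeR replicate block gave 3679 there. With that block, 5760 became 3674 between eYFP+ macrophages and Ly6Clo monocytes, and 5681 became 3417 between eYFP- macrophages and Ly6Clo monocytes. The eighth gene was Ptgs2, higher in eYFP+ macrophages than in Ly6Chi monocytes by DESeq2 (log2 3.37, adjusted p = 0.0187; without the 2 libraries that stood apart, log2 2.74, adjusted p = 0.0249) and not by edgeR (adjusted p = 0.0940). From high to low, Hpgds and Ltc4s therefore ran from both macrophage groups, which were not told apart, over Ly6Clo to Ly6Chi monocytes, and Ptgs1 from both macrophage groups over Ly6Chi to Ly6Clo monocytes. Alox5 ran from Ly6Clo over Ly6Chi monocytes to the macrophage groups.

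Beyond these 10 genes, 67 further genes of the pathway were matched by symbol, in lists of phospholipases, lipoxygenase and leukotriene enzymes, prostanoid enzymes, receptors, transport and breakdown, and fatty acid reacylation; 65 had a count. Between macrophages and monocytes, 24 of 61 tested rose in macrophages and 12 fell (background 20.7% and 15.3%), with a median log2 difference of 0.53 against 0.08 over all tested genes. Among phospholipases 7 of 11 rose and 0 fell (0 also at an unadjusted p under 0.05, by DESeq2 and edgeR). Lipoxygenase and leukotriene enzymes split 3 up and 2 down of 10, prostanoid enzymes 4 and 1 of 9, receptors 2 and 3 of 12, transport and breakdown 4 and 3 of 10, and reacylation 4 and 3 of 9.

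First by adjusted p among those that rose in macrophages was Tbxas1, the thromboxane synthase, at 648 to 998 TPM in macrophages and 37.0 to 93.0 TPM in monocytes (log2 3.71, DESeq2 adjusted p = 3.00e-89). Fam213b, which encodes a prostamide and prostaglandin F synthase, was at 807.9 to 1117 TPM against 23.1 to 79.6 TPM (log2 4.49, adjusted p = 9.29e-83). Pla2g15, a lysosomal phospholipase, was at 530 to 878 TPM against 32.8 to 84.1 TPM (log2 3.34, adjusted p = 6.65e-44). Ggt5, which converts leukotriene C4 to D4, was at 14.4 to 25.4 TPM against 1.09 to 3.48 TPM (log2 2.96, adjusted p = 3.66e-29). In all 4 the macrophage and monocyte libraries did not overlap, and Tbxas1 exceeded Hpgds in every macrophage library, with Hpgds at 0.284 to 0.495 of its level.

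First by adjusted p among those that fell in macrophages was Ltb4r1, the high-affinity receptor of leukotriene B4, which was at 285 to 305 TPM in Ly6Chi and 152 to 225 TPM in Ly6Clo monocytes, and at 9.04 TPM or less in macrophages (log2 -6.41, DESeq2 adjusted p = 7.32e-95). Cyp4f18, a hydroxylase that degrades leukotriene B4, was at 370 to 2981 TPM in monocytes and 25.1 to 41.3 TPM in macrophages (log2 -4.83, adjusted p = 7.85e-32). Ptgir, the prostacyclin receptor, was at 46.1 to 66.0 TPM in Ly6Chi, 1.67 to 27.02 TPM in Ly6Clo monocytes and at most 1.49 TPM in macrophages (log2 -6.06, adjusted p = 3.44e-28). Mboat1, a lysophospholipid acyltransferase, was at 8.58 to 17.6 TPM in monocytes and at most 2.41 TPM in macrophages (log2 -4.95, adjusted p = 6.05e-29).

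Between the monocyte groups, 2 of 60 tested pathway genes rose in Ly6Chi and 9 fell (background 3.74% and 5.08%; median log2 0.21 against 0.01 over all tested genes). Ptgr1, which inactivates leukotriene B4 and prostaglandins, was at 17.1 to 24.8 TPM in Ly6Chi and 0.78 to 3.93 TPM in Ly6Clo monocytes (log2 3.06, DESeq2 adjusted p = 3.69e-08). Abcc4, an exporter of prostaglandins, was higher in Ly6Chi by DESeq2 (log2 2.07, adjusted p = 0.00896) and not by edgeR (adjusted p = 0.0753), nor by DESeq2 without Ly6Chi replicate 1 (adjusted p = 0.0554). Hpgd, which oxidises and so inactivates prostaglandins, was at 208 to 230 TPM in Ly6Chi and 570 to 616 TPM in Ly6Clo monocytes (log2 -1.45, DESeq2 adjusted p = 2.98e-14). Lpcat2 (log2 -1.59, adjusted p = 3.90e-05), Cyp4f13 (log2 -1.97, adjusted p = 0.00219) and Dpep2 (log2 -2.56, adjusted p = 0.00224), which acylate lysophospholipids, hydroxylate fatty acids and convert leukotriene D4 to E4, were also lower in Ly6Chi; edgeR did not call Dpep2 (adjusted p = 0.0541). Without Ly6Clo replicate 2 and eYFP+ replicate 1 the Cyp4f13 difference shrank to log2 -1.08 ± 0.18 (DESeq2 adjusted p = 1.25e-07).

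Between the macrophage groups, 0 of 60 tested pathway genes were higher in eYFP+ (1 by DESeq2 and 0 by edgeR at an unadjusted p under 0.05) and 4 were lower (background 0.156% and 1.92%; median log2 0.13 against 0.05 over all tested genes). Ltb4r1 was at 0.65, 1.04 and 2.37 TPM in eYFP+ and 3.35, 9.04 and 7.78 TPM in eYFP- macrophages (log2 -2.28 ± 0.44, DESeq2 adjusted p = 7.85e-05, edgeR adjusted p = 0.0488; with the replicate block, 0.000145 by DESeq2 and 0.1003 by edgeR). Slco2a1, the prostaglandin transporter, was at most 0.13 TPM in eYFP+ and 0.557 to 1.002 TPM in eYFP- macrophages (log2 -3.11 ± 0.94, DESeq2 adjusted p = 0.0465, edgeR adjusted p = 0.412). The DESeq2 call for Slco2a1 was lost with a minimum of 10 counts (adjusted p = 0.0775), without independent filtering (0.0940), and without any one of the eYFP- replicates (0.212 to 0.235), eYFP+ replicate 2 or 3 (0.112 and 0.0953) or Ly6Chi replicate 2 or 3 (0.0831 and 0.0638). Mboat1 and Alox8, a lipoxygenase, completed the 4 and are named after their values were seen; edgeR called neither (adjusted p = 0.0643 and 0.300). Of the 4, Ltb4r1 and Mboat1 were far higher in monocytes than in macrophages. Slco2a1 (at most 0.0411 TPM) and Alox8 (at most 0.2002 TPM) were close to absent in monocytes. Alox8 was low in macrophages too, at 0 TPM in eYFP+ and 0.0667 to 0.702 TPM in eYFP- libraries. The marker sums given beside Alox5ap moved with all 4, and their part was not tested.

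Among the 5 genes whose log2(TPM + 1) was most like that of Pla2g2d over the 12 libraries, out of 10951 ranked, were Prune2 (Pearson r = 0.935), Nol11 (0.913), Clmp (0.879) and Aph1c (0.876). The 12 points fall in 4 groups and share their libraries, so r is a description. Nol11, which encodes a nucleolar protein, averaged 26.3 TPM in eYFP+ and 20.45 TPM in eYFP- macrophages, 18.0 TPM in Ly6Chi and 18.9 TPM in Ly6Clo monocytes. Prune2 stayed under 1 TPM on average in every group. None of these 4 was among the first 5 on the deposited variance-stabilised values, where they ranked from 57 to 227.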

How the data were processed

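RNA was measured in 12 libraries of sorted bone marrow cells, amplified as full-length cDNA without molecular identifiers. The authors trimmed reads, removed ribosomal sequence, aligned to GRCm39 with segemehl and counted unambiguous pairs per gene over exons with featureCounts; strand use is not given in the sources used here. The deposited counts are raw; the deposited TPM values are scaled by the authors to gene length and library total; the deposited variance-stabilised values are on a log2 scale. Symbols matched 91.4% of identifiers.

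Groups came from the labels. Counts were fitted with DESeq2 1.42.0 across all genes and 12 libraries, with group as the only term; the study used DESeq2, and its model formula is not given in the sources used here; adjusted p-values are Benjamini-Hochberg over all tested genes, with a threshold of 0.05. Alternatives were edgeR 4.0.16 (quasi-likelihood), limma 3.58.1 on log2(TPM + 1), other scaling and filters, a replicate block and leaving out libraries. The scripts were tested on simulated data. Levels between genes are compared in TPM.

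Over the 2000 most expressed genes, deviations of same-numbered macrophage libraries from their group means correlated at 0.489, 0.371 and 0.166, and of monocyte libraries at 0.334, 0.026 and 0.013. Macrophage numbers therefore passed a rule for pairs of all correlations over 0.1, from the data and not the labels. Even so, eYFP- replicate 2 correlated more with eYFP+ replicate 3 (0.462) than with its own number. The main fit did not use the pairs, and the replicate block of the alternatives covered all 12 libraries, monocytes included.

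The genes and lists were chosen with earlier results of these data known. Of the 5 genes most like Pla2g2d, 1 is not reported here. Named pathway genes are the first 4 higher and 4 lower by adjusted p among called genes averaging at least 50 normalized counts in the libraries compared; Fam213b is the older symbol of Prxl2b, as the name table gives it. Opposite-strand genes Gm19719, Gm26542 and Gm43621 overlap exons of Alox5ap, Ltc4s and Ptgs1, with at most 52, 55 and 26 counts in any library.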

Additional observations from a re-analysis of the deposited data

How the results depend on the processing

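Calls between macrophages and monocytes were the most stable, with 7 to 8 members, 31 to 39 pathway genes and 6525 to 9157 genes called when 1 library was left out. Of 734 alternative member log2 fold changes, 700 kept direction and, where tested, side of the threshold. For Pla2g2d in comparisons that include eYFP+ libraries, and in fits without an adjusted p, only direction and size were weighed. With limma on log2(TPM + 1), 4 differences of Pla2g2d kept direction and were smaller (2.60 between macrophage groups, 1.87 between macrophages and monocytes). Between macrophage groups, members called fell from 1 to 0 with edgeR and with the edgeR replicate block (unadjusted p under 0.05 for 2 and 1 genes), and were 0 to 1 leaving out 1 library, 0 without eYFP- replicate 3. All genes called there (439) became 64 with edgeR, 1156 with the DESeq2 replicate block, 24 with the edgeR replicate block, 175 with limma and a pseudocount of 0.1, 220 with limma and no filter, 678 with 6 libraries, 995 without the 2 libraries that stood apart and 228 (without eYFP- replicate 3) to 873 (without Ly6Clo replicate 2) leaving out 1. Pathway genes called there (4) became 1 with edgeR, 0 with the edgeR replicate block, 2 with a minimum of 10 counts, without independent filtering and with both limma variants, 8 without the 2 libraries and 2 to 6 leaving out 1, with 2 without eYFP- replicate 1, eYFP- replicate 3 or eYFP+ replicate 3.

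Between monocyte groups, members called (4) became 7 without the 2 libraries and 4 to 5 leaving out 1. All genes called (1870) became 829 with edgeR, 537 with the edgeR replicate block, 1219, 1097 and 969 with limma (pseudocount 1, 0.1, no filter), 1186 with 6 libraries and 1208 to 2310 leaving out 1, lowest without Ly6Chi replicate 2 and 1228 without Ly6Chi replicate 1. Pathway genes called (11) became 6 with edgeR and with limma without filter, 3 with the edgeR replicate block, 7 with 6 libraries and 8 to 13 leaving out 1. The numbers do not pair the monocytes.

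These differences, none past the threshold with all libraries, changed sign: between macrophage groups Pla2g4a (-0.0312 to 0.538 leaving out 1 library, lowest without eYFP+ replicate 1, and -0.0396 without the 2 libraries), Hpgds (-0.0243 to 0.683, lowest without eYFP+ replicate 1, and -0.0334) and Ptgs1 (-0.0455 to 0.247, below 0 without eYFP+ replicate 2 or 3, and -0.0036, -0.0038 and -0.0036 with limma); between monocyte groups Alox15 (-4.05 to 4.09, above 0 without Ly6Clo replicate 1) and Lta4h (-0.0113 to 0.179, below 0 without Ly6Chi replicate 1); and macrophages against monocytes Alox15 (-1.33 to 3.57, below 0 without Ly6Clo replicate 2 or eYFP+ replicate 2). Of the 5 genes most like Pla2g2d, 0 were shared on variance-stabilised values. The causes were not tested. Alox15, Ptgs2 and, outside eYFP+ macrophages, Pla2g2d rest on few counts, which limits the precision of their differences. The DESeq2 replicate block changed 1 member call in these 3 comparisons, that of Ptgs2.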
